A study of Mus musculus with 6 samples.

Results

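The regions described here are stretches of open chromatin at the ends of protein-coding genes that had an ATAC-seq peak in all 3 day 0 libraries but in only 1 or 2 of the 3 day 1 libraries. Joining peaks of the 6 deposited lists that shared 1 bp or more gave 68913 regions on chromosomes 1 to 19, X and Y, and 29680 of these had a peak in all 3 day 0 lists. Of these, 8603 had their midpoint within 1 kb of the start or far end of an annotated coding gene, and 2299 of the 8603 (26.7%) were partly kept at day 1. The other gene-end regions were kept in all 6 lists (5544, or 64.4%) or lost from all 3 day 1 lists (760, or 8.83%). Away from gene ends, 29.3% of the regions in all 3 day 0 lists were partly kept. The 2299 partly kept regions lay nearest to 2245 genes, which is 27.5% of the 8149 genes with a gene-end region in all 3 day 0 lists. Of those 8149 genes, 67.4% had a region kept in all 6 lists and 8.99% a lost one. Peak calls at both days chose the members, so their presence, absence and height in the 6 libraries are given as a description, with no test.

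ATAC-seq uses a transposase that inserts sequencing adapters into accessible DNA, so that fragments pile up where chromatin is open. The series followed mouse brown pre-adipocytes, the committed precursors of brown fat cells, as they were taken toward the mature brown adipocyte. The day 1 group held 3 libraries collected 1 day into brown adipocyte differentiation, and the day 0 group held 3 libraries of wild-type brown pre-adipocytes before it. All 6 libraries carry the same cell line name, BAT, and the same cell type label, and the strain, the agents that induced differentiation and the origin of the line are not given in the sources used here. The series title concerns deletion of RUNX1 or RUNX2, and no deleted sample was analysed here. Whether the replicates came from separate cultures is not stated, so the spread between them may be technical.

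One library stood apart. Day 1 replicate 3 gave 12556 peaks from 7302457 fragments, the fewest peaks of the 6 libraries although it was the deepest of its day. Day 1 replicates 1 and 2 gave 20069 and 23274 peaks from 4919755 and 5603667 fragments, and the day 0 libraries gave 39211 to 55511 peaks from 8127635 to 11011889 fragments. With the day 1 lists of replicates 1 and 2 alone, 1031 gene-end regions (12.0%) nearest to 1016 genes (12.5%) were partly kept, that is, in exactly 1 of the 2 lists. Counts by gene list are therefore given with and without that library. A library with no peak at a region has no height in the deposited lists, and such a region may still have held fragments below the calling cutoff. The marker counts that follow are given without the share of all coding genes with a gene-end peak in each library. Since every day 1 list was shorter than every day 0 list, a change at the markers cannot be told from list length. Of 17 fibroblast and adipocyte precursor markers, 6, 6 and 4 had a gene-end peak in day 1 replicates 1 to 3, against 9, 9 and 8 in day 0 replicates 1 to 3. Of 9 mature brown adipocyte markers, 2, 4 and 3 had one at day 1, against 3 in each day 0 library. Gene-end peaks at 8 immune markers numbered 0 in every day 1 library, against 2 or 3 at day 0, and of the 9 endothelial markers of that set Kdr alone had one, while Flt1, outside it, had a member region. Of 6 muscle markers none had one at day 1, against 2 in day 0 replicate 1 alone, and of 4 neural markers none had one at day 1, against Tubb3 in each day 0 library. Epithelial markers had none in any library.

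Gene starts are where RNA polymerase is loaded, and most active starts lie in a short nucleosome-poor stretch. In mammals many of them fall in CpG islands, which are rich in C, G and the CpG step and are accessible in most cell types, while starts poor in CpG are used more selectively. Brown pre-adipocytes that receive an adipogenic stimulus first induce the C/EBP factors Cebpb and Cebpd and then Pparg and Cebpa, which switch on genes of lipid storage and heat production. Precursor programs such as matrix synthesis, the YAP and TEAD response to cell tension and Wnt and TGF-beta signalling are known to be restrained during that process.

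Promoter sequences below come from RefSeq on GRCm38.p6, the assembly that mm10 names, and run from 250 bases before to 50 bases after a gene's annotated start, 5′ to 3′ on the gene's strand. Capitals mark letters of a GC box (GGGCGG, known as an Sp1 and Krüppel-like factor motif), a CCAAT box (CCAAT, an NF-Y motif) or an ETS motif (CCGGAAG), read on either strand. The first 4 sequences are shown because their regions had the highest authors' fold enrichment at day 0 among members with a promoter window that overlaps them. They lie at chr6:42710066-42710365 (minus strand), chr1:107589756-107590055 (plus strand), chr7:102565433-102565732 (minus strand) and chr7:29859762-29860061 (plus strand).
Tcaf1: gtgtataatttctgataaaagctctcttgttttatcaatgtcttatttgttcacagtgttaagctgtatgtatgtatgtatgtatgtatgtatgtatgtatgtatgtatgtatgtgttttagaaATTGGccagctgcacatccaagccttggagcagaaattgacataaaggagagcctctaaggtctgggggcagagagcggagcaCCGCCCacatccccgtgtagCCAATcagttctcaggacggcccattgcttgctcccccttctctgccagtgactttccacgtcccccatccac
Serpinb8: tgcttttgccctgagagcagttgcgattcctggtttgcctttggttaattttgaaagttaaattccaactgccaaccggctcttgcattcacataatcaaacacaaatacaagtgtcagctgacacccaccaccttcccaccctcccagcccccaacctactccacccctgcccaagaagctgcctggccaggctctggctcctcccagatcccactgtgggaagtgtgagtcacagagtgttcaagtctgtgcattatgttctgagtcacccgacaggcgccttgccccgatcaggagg
Trim21: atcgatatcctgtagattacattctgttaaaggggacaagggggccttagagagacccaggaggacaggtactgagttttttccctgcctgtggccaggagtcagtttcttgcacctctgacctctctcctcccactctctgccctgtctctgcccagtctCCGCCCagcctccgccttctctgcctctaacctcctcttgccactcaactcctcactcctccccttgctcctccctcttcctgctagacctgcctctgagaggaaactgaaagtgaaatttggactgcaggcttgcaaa
Zfp420: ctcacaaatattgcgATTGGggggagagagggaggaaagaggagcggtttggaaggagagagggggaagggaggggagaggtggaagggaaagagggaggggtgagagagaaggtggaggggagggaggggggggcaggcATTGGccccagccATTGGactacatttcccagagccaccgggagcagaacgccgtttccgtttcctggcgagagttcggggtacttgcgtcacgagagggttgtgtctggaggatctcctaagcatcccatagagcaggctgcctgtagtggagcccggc

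The ratio of observed to expected CpG was 0.324 at Tcaf1, 0.247 at Serpinb8, 0.146 at Trim21 and 0.488 at Zfp420, against a median of 0.774 over the promoter windows of all members. All 4 lay below that median. Tcaf1 had 1 GC box and 2 CCAAT boxes, Trim21 had 1 GC box, Zfp420 had 3 CCAAT boxes and Serpinb8 had none of the 3 marked motifs but held AP-1 letters (TGANTCA). No ETS match fell in any of the 4.

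The next 4 windows are shown for what their genes do in fat cell precursors and were chosen with their values known. Runx2 encodes a RUNX factor that drives bone formation, Klf4 an early activator of Cebpb, Ankrd1 a cofactor widely used as a YAP and TEAD target, and Plin2 a coat protein of lipid droplets. They lie at chr17:44814578-44814877 (minus strand), chr4:55532426-55532725 (minus strand), chr19:36119795-36120094 (minus strand) and chr4:86670010-86670309 (minus strand).
Runx2: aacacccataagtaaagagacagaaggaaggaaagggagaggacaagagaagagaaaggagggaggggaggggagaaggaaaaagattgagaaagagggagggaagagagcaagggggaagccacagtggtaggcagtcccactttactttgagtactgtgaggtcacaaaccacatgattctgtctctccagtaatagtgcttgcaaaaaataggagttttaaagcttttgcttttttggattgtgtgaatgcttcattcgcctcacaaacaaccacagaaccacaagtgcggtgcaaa
Klf4: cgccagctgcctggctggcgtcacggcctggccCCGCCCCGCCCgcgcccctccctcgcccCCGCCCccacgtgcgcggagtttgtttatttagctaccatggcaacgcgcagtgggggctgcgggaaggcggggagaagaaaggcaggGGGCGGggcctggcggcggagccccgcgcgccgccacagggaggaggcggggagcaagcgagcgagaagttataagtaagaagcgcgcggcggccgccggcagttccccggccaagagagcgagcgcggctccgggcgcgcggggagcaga
Ankrd1: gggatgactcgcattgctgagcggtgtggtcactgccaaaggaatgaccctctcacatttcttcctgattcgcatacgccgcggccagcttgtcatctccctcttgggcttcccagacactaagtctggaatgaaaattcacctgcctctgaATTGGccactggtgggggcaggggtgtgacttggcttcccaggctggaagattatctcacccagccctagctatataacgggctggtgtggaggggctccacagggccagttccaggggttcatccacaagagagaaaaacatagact
Plin2: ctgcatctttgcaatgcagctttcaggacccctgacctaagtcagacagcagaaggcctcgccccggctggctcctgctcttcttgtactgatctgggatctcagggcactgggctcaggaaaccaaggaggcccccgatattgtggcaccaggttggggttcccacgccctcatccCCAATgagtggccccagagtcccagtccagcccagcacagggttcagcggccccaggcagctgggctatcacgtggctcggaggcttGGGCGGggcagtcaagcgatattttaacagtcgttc

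Klf4 had a CpG-rich window, with an observed over expected ratio of 0.974, 40 CpG steps, 4 GC boxes and an E-box (CACGTG). Runx2 was at the other end, with a ratio of 0.143, 2 CpG steps and none of the marked motifs, and it held RUNX letters (TGTGGT) and C/EBP letters (TTGCNNAA). Ankrd1, at a ratio of 0.312, held RUNX and TEAD (CATTCC) letters and 1 CCAAT box, and Plin2, at 0.363, held 1 GC box, 1 CCAAT box and an E-box. A match is a run of letters and not a measured binding site.

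At day 1, 1495 of the 2299 members (65.0%) had a peak in 2 libraries and 804 (35.0%) in 1. The most frequent pattern, at 1214 members (52.8%), was a peak in day 1 replicates 1 and 2 and none in replicate 3. A peak in replicate 2 alone followed with 536 members (23.3%), then replicate 1 alone with 214 (9.31%) and replicates 2 and 3 with 210 (9.13%). Replicates 1 and 3 made up 71 members (3.09%) and replicate 3 alone 54 (2.35%). Day 1 replicate 2 thus held a peak at 1960 members (85.3%), replicate 1 at 1499 (65.2%) and replicate 3 at 335 (14.6%). The class was in the main that of day 0 peaks missed by replicate 3. That library also had a peak at 5544 (82.0%) of the 6758 gene-end regions called in the 3 day 0 lists and in day 1 replicates 1 and 2.

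**Figure D1:**
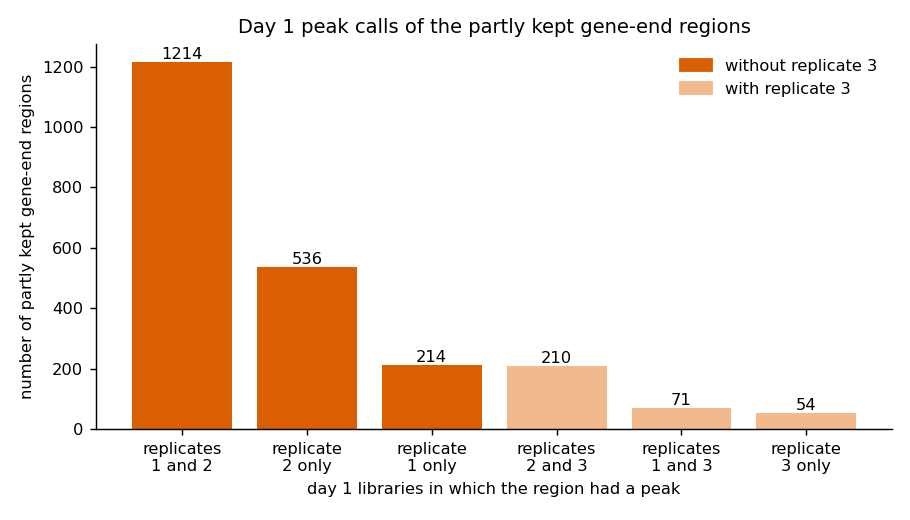
Number of partly kept gene-end regions (vertical axis) by the day 1 libraries in which they had a peak (horizontal axis). The bar for replicates 1 and 2 holds 1214 of the 2299 regions, and the 3 pale bars, which include replicate 3, hold 210, 71 and 54.

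The members were low peaks in every library. Height is the authors' pileup at the highest summit of a region per 1000000 fragments of the library, and medians are over the members called there. At day 1 the median height was 2.03, 2.14 and 1.23 in replicates 1 to 3, and at day 0 it was 2.09, 2.09 and 1.53 in replicates 1 to 3. Regions kept in all 6 lists stood at 4.07, 4.46 and 2.05 at day 1 and at 4.09, 4.31 and 2.84 at day 0. Lost regions stood at 1.73, 1.72 and 1.31 at day 0, below the members in all 3 libraries. In whole fragments, the median member summit held 10, 12 and 9 at day 1, against 23, 17 and 14 at day 0, so the day 1 calls rest on few fragments. Only 4.39% of the members were as high at day 0 as the median kept region.

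Fold enrichment and peak width at day 0 gave the same order. The authors' fold enrichment over local background, averaged over the day 0 libraries, had a median of 7.97 in members, against 11.8 in kept and 6.69 in lost regions. Members with a peak in 2 day 1 libraries had a median of 8.47, against 7.09 for those with a peak in 1. Median region width was 584 bp in members, against 765 bp in kept and 405 bp in lost regions. Median peak width in members was 252, 315 and 199 bp in day 1 replicates 1 to 3, against 478, 389 and 296 bp in day 0 replicates 1 to 3, so the days overlapped. In kept regions it was 418, 523.5 and 352 bp at day 1, against 658.5, 581 and 483 bp at day 0. In lost regions it was 337, 275 and 214.5 bp at day 0.

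**Figure D2:**
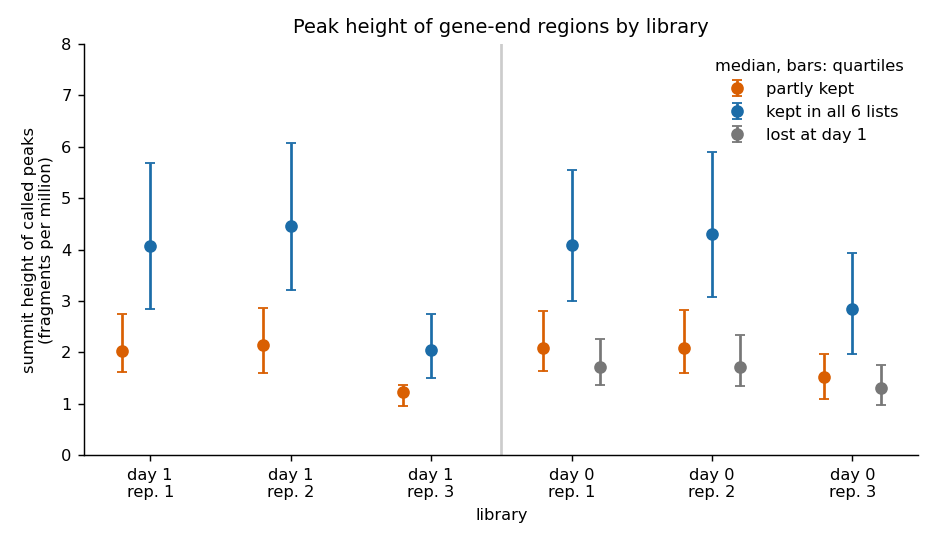
Summit height of called peaks in fragments per 1000000 (vertical axis) in each library (horizontal axis), as the median with quartile bars, for partly kept, kept and lost gene-end regions. Members lie between 1.23 and 2.14, below kept regions in every library, and lost regions have no day 1 peak by definition.

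A day 1 library below the calling cutoff has no height, so it is left out of the day 1 values and log2 differences. Comparisons with day 0, here and for the genes and lists below, are thus biased towards high day 1 values. Where a day 1 peak was called, its height relative to day 0 had no settled direction over the members. The median log2 difference, day 1 minus day 0, was 0.08 with quartiles of -0.25 and 0.38, and 985 members lay below 0 and 1314 above. After scaling each library to the median height of the kept regions the median was -0.05, with 1250 below 0. Kept regions had a median of -0.08, or 0.01 after that scaling, and partly kept regions away from gene ends -0.34, or -0.46. All kept regions include replicate 3, which most members lack. Without that library the medians were 0.13 in members, 0.19 in kept regions and -0.29 in partly kept regions away from gene ends. By library, member heights over their day 0 mean had a median log2 of 0.07, 0.15 and -0.73 in day 1 replicates 1 to 3, against 0.11, 0.25 and -0.85 in kept regions. Replicate 3 was thus low in members and kept regions alike.

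Most members sat at gene starts. Strand was known for 1818 of them, and 1677 (92.2%) lay nearer to the start than to the far end, against 98.5% of kept and 72.0% of lost regions. Far ends made up 141 members (7.76%), against 1.54% of kept and 28.0% of lost regions. At starts, a region's summit was taken as the median of the summits in the 3 day 0 libraries. It lay a median of 6 bp upstream, at an offset of -6 bp with quartiles of -70 and 105 bp, against -30 bp in kept regions. The median distance of the midpoint to the gene end was 150 bp in members, against 124 bp in kept and 279 bp in lost regions. Within a region, peaks of the different libraries fell close together. Summits of day 1 replicates 1 to 3 lay a median of 38, 40 and 48 bp from the median of the day 0 summits. Those of day 0 replicates 1 to 3 lay a median of 32.5, 34.5 and 35 bp from the median of the other day 0 summits.

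For 1984 of the 2245 genes (88.4%) the member was the only gene-end region with a peak in all 3 day 0 lists. Another 140 genes (6.24%) also had a gene-end region kept in all 6 lists, 72 (3.21%) had one that was lost, and 54 had 2 members. A second coding gene end lay within 1 kb of 284 members (12.4%), against 18.1% of kept and 8.82% of lost regions. A lost region away from gene ends lay within 20 kb of 25.5% of the members, against 21.6% of kept and 28.6% of lost gene-end regions. A microRNA hairpin overlapped 8 members, among them Mir8101 at Hdac5, Mir574 at Fam114a1 and Mir718 at Irak1. The share of gene-end day 0 regions that were partly kept ran from 19.5% on chromosome 18 to 33.9% on chromosome 11, and from 5.79% on chromosome 10 to 15.4% on X without day 1 replicate 3.

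The members just inside the 1 kb limit were at Plekho2, 997 bp from the gene end, and at Prkd1, at 1000 bp, with mean day 0 fold enrichment of 6.54 and 6.06. Just outside, at 1003 bp each, the regions at Fat4 and Hoxc6 had 7.19 and 7.62.

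The 10 members with the highest day 0 fold enrichment ranged from 18.6 at Tcaf1 to 16.1 at Mrpl37, and all 10 had a peak in day 1 replicates 1 and 2 and none in replicate 3. Their other genes were Serpinb8, Trim21, Sra1, Zfp420, Ccdc97, Zfp964, Nicn1 and Sfn, and the regions at Ccdc97 and Sfn lay at the far end of the gene. Tcaf1, a partner of TRP channels, had heights of 3.25 and 4.46 in day 1 replicates 1 and 2, against 6.08, 6.27 and 3.38 in day 0 replicates 1 to 3. The days overlapped, and the authors' fold enrichment was 9.43 and 12.2 at day 1, against 21.3, 18.9 and 15.7 at day 0. Serpinb8, a serine protease inhibitor, had 2.85 and 3.21 at day 1, against 5.18, 8.24 and 4.04 at day 0, and here both day 1 values lay below all day 0 values. Trim21, a ubiquitin ligase that binds antibodies inside the cell, had 4.88 and 4.10 at day 1, against 4.36, 4.06 and 3.49 at day 0, with overlap. Strong peaks were thus missed by replicate 3 whether or not the other day 1 heights were low.

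Among members in 2 day 1 libraries, those with the highest day 1 peaks were at Klhl36, Spryd4, Rasa3, Emc9, Foxh1 and Mocs1. Emc9, a subunit of the complex that inserts membrane proteins, also had the highest log2 difference of members with a mean day 0 fold of at least 5. It had 6.71 and 4.64 fragments per 1000000 in day 1 replicates 1 and 2, against 1.82, 1.85 and 1.64 at day 0, a log2 difference of 1.68 and 1.48 after scaling to kept regions. The days did not overlap there. The other high differences were 1.56 at Tns4, 1.47 at Cdc42ep3, 1.37 at Pm20d2 and 1.31 at 4930432M17Rik, all called in replicates 1 and 2, and all 5 stayed above 1.1 after the scaling. Cdc42ep3 binds the small GTPase Cdc42, and Tns4 is a tensin of cell adhesions. Cdc42ep3 had 3.25 and 3.03 at day 1, against 1.18, 1.35 and 0.873 at day 0.

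At the low end, Tuba1a, an alpha-tubulin gene, had 1.83 and 2.14 in day 1 replicates 1 and 2, against 6.08, 7.75 and 5.35 in day 0 replicates 1 to 3. Its log2 difference of -1.69 was the lowest of its kind, and -1.89 after scaling to kept regions. Dclk1, a microtubule-binding kinase, had 1.02 and 1.43 at day 1, against 3.81, 4.92 and 2.51 at day 0, a difference of -1.62. Emp1, an epithelial membrane protein gene, had 2.44 and 1.96, against 6.99, 7.38 and 4.69, a difference of -1.53. Tmem159, a lipid droplet assembly factor, and 1700003F12Rik were called in day 1 replicate 3 and 1 other library and had -1.57 and -1.56, or -1.39 and -1.08 without replicate 3. Emc9 and Tuba1a thus lay at opposite ends of the log2 range with the same call pattern.

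Members with 1 day 1 peak could also be high. Dot1l, a histone methyltransferase gene, had 5.53 in day 1 replicate 2 alone, against 4.18, 4.55 and 2.95 at day 0. Mcm2, part of the replicative helicase, had 4.46 in replicate 2 alone, against 2.91, 2.83 and 2.40 at day 0. Both had a peak in 1 day 1 library above every day 0 height, while the other day 1 libraries had no called peak.

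**Figure D3:**
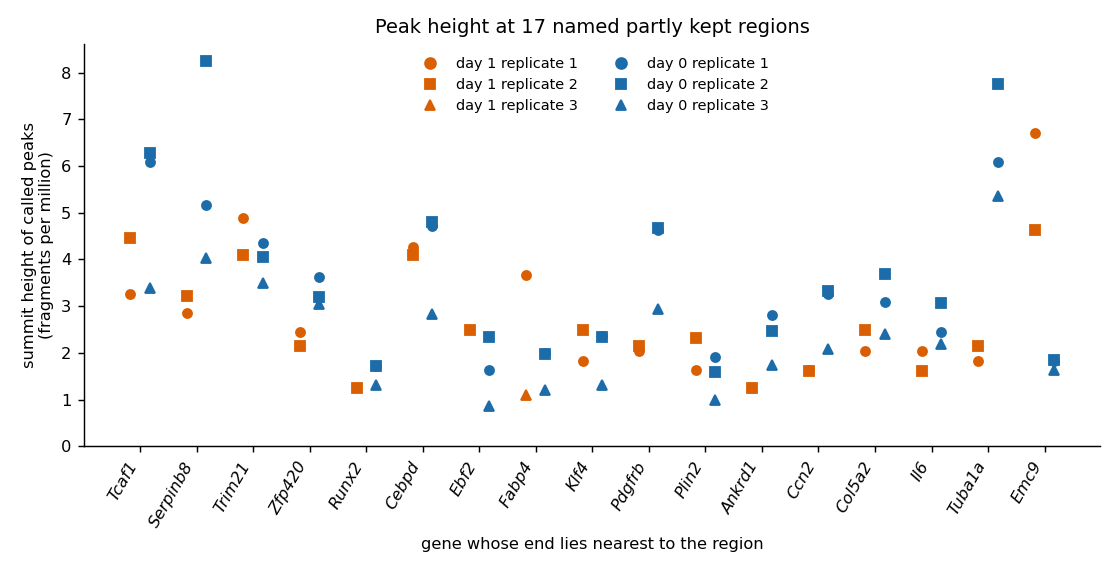
Summit height in fragments per 1000000 (vertical axis) at 17 named members (horizontal axis), with day 1 in orange left of day 0 in blue and 1 symbol per replicate, absent where no peak was called. Tuba1a has its day 1 heights of 1.83 and 2.14 below its day 0 heights and Emc9 its 6.71 and 4.64 above, and Fabp4 has the 1 day 1 triangle, from replicate 3.

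Of 21 regulators and markers of fat cell development, 6 had a partly kept region, namely Runx2, Cebpd, Ebf2, Fabp4, Klf4 and Pdgfrb. Cbfb, Cebpa, Ebf1 and Klf5 had a gene-end region in all 6 lists, Ppargc1a had one that was lost, and Adipoq, Cebpb and Pparg had gene-end peaks in fewer than 3 day 0 lists. The other 7 had no gene-end region. Of the 11 with a region in all 3 day 0 lists 6 thus had a member, against 27.5% over all genes, and 3 of 11 without day 1 replicate 3, against 12.5%. With peaks in 1 or 2 day 1 lists, these members cover a bone regulator, an early adipogenic factor, a brown fat factor, a fatty acid carrier and a receptor of mural cells and fibroblasts.

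Runx2 had 1.25 fragments per 1000000 in day 1 replicate 2 alone, against 1.73, 1.72 and 1.31 in day 0 replicates 1 to 3, and its fold enrichment was 5.64 there, against 9.83, 8.69 and 8.07. The single day 1 value lay just below the lowest day 0 value. Pdgfrb, the platelet-derived growth factor receptor of pericytes and fibroblasts, had 2.03 and 2.14 in day 1 replicates 1 and 2, against 4.63, 4.68 and 2.95 at day 0. Both day 1 values lay below all day 0 values, and the log2 difference was -0.97, or -1.15 after scaling to kept regions. Ebf2, a factor that marks brown fat precursors, had 2.5 in day 1 replicate 2 alone, against 1.63, 2.34 and 0.873 at day 0, above all of them.

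Cebpd had 4.27 and 4.10 in day 1 replicates 1 and 2, against 4.72, 4.80 and 2.84 at day 0, and the days overlapped. Klf4 had 1.83 and 2.5, against 2.36, 2.34 and 1.31, also with overlap. Fabp4, the fatty acid carrier of adipocytes, had 3.66 in day 1 replicate 1 and 1.10 in replicate 3, against 2.00, 1.97 and 1.20 at day 0. Its 2 day 1 values lay on either side of the day 0 range, and its log2 difference of 0.46 was 1.09 without replicate 3. Runx2 and Ebf2 stayed partly kept without day 1 replicate 3, and so did Fabp4, while Cebpd, Klf4 and Pdgfrb were then in every remaining list.

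For the lists of genes below, a gene counts when the member lies nearest to it, and the share is of the list's genes that had a gene-end region in all 3 day 0 lists. Over all genes that share was 27.5%, and 12.5% without day 1 replicate 3. Counts of log2 differences below 0 in a list stand against 42.8% of all 2299 members, or 54.4% after scaling to kept regions. Of 62 lists, 48 had 10 or more such genes. Many lists are short, so that 1 gene moves a share by several points, and shares near the background say nothing about the list.

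Of 11 collagen genes 7 had one (63.6%), the other 4 had a lost region and none had one kept in all 6 lists. Without day 1 replicate 3 the count was 3 of 11. The 7 were Col1a1, Col5a1, Col5a2, Col5a3, Col6a2, Col6a3 and Col7a1, which encode chains of fibrillar, microfibrillar and anchoring collagens. Col5a2 had 2.03 and 2.5 in day 1 replicates 1 and 2, against 3.09, 3.69 and 2.40 at day 0. Col6a2 had 4.47 and 4.28, against 5.90, 4.68 and 3.60. Both overlapped between days, and 6 of the 7 collagen regions had a log2 difference below 0 under either scaling.

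The wider matrix list had 10 of 26 genes with a member (38.5%), but 1 of 26 (3.85%) without day 1 replicate 3, since 8 of its 10 regions had a peak in every list but that of replicate 3. The list's median log2 difference was -0.47, with 8 of 10 below 0, and -0.60 after scaling, again with 8 of 10. It shares 5 collagens with the list above. Postn, which encodes the matrix protein periostin, was called at day 1 in replicate 3 alone, at 1.10, against 3.72, 2.95 and 2.18 at day 0. Replicate 3 was also low in kept regions, and the log2 difference of -1.43 at Postn was -0.56 after scaling to them. Hspg2, the basement membrane proteoglycan perlecan, had 4.27 and 2.86 in day 1 replicates 1 and 2, against 3.09, 2.58 and 2.40, with overlap.

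Matrix proteases and their inhibitors had 8 of 17 genes with a member (47.1%), and 3 of 17 (17.6%) without day 1 replicate 3. Adamts4, an aggrecan-cleaving protease, had 1.63 and 1.43 in day 1 replicates 1 and 2, against 3.18, 3.57 and 2.40 at day 0, with no overlap. Mmp19 had 3.05 and 3.39, against 4.0, 5.54 and 2.29, with overlap. Plau, the urokinase gene, was called in day 1 replicate 2 alone, at 2.5, against 2.63, 3.08 and 2.40 at day 0.

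In the YAP and TEAD list, 10 of 20 genes had a member (50%), and 5 of 20 (25%) without day 1 replicate 3. They were the coactivator Yap1, the DNA-binding factor Tead1, the kinase Lats2 with the scaffolds Sav1, Wwc1 and Ajuba, the antagonists Vgll4 and Ptpn14, and the targets Ankrd1 and Ccn2. Ankrd1 had 1.25 in day 1 replicate 2 alone, against 2.82, 2.46 and 1.75 in day 0 replicates 1 to 3. Ccn2 had 1.63 and 1.61 in day 1 replicates 1 and 2, against 3.27, 3.32 and 2.07. At both targets every called day 1 value lay below every day 0 value, though Ankrd1 had only 1, from a summit of 7 fragments. Yap1 itself had 3.21 and 1.10 in day 1 replicates 2 and 3, against 2.27, 2.34 and 1.53, on either side of the day 0 range. Over the 10 members 5 were below 0 and 5 above, under either scaling.

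Chemokine and interleukin genes had 7 of 13 with a member (53.8%), or 2 of 13 (15.4%) without day 1 replicate 3, and 5 of the 7 had a log2 difference below 0, or 6 after scaling. Il6 had 2.03 and 1.61 in day 1 replicates 1 and 2, against 2.45, 3.08 and 2.18 at day 0, and Cxcl1, a neutrophil attractant, had 1.83 and 1.61, against 3.81, 3.20 and 2.51. Neither gene overlapped between days. Ccl2, a monocyte attractant that was not chosen by the rule for named genes, had 1.07 in day 1 replicate 2 alone, against 4.09, 4.55 and 3.06. The 8 immune markers counted above had no gene-end peak in any day 1 library and 2 or 3 at day 0, where every list was longer. That change cannot be told from list length, and the part of immune cells in these values was not tested. The immune factor Spi1, which is not among those 8, had a member region at 2.32 in day 1 replicate 2 alone, against 2.72, 2.58 and 1.86 at day 0.

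Of TGF-beta and BMP genes, 10 of 25 had a member (40.0%), or 5 of 25 (20%) without day 1 replicate 3. They included the receptors Acvr1b, Acvr2a, Acvr2b and Bmpr2, the ligand Gdf11 and the inhibitory factor Smad6. Smad6 had 4.67 and 3.93 in day 1 replicates 1 and 2, against 3.90, 3.20 and 2.95 at day 0, both above every day 0 value. Wnt genes had 9 of 24 with a member (37.5%), or 3 of 24 (12.5%) without that library. The Wnt enhancer Rspo2 had 1.83 and 1.78, against 3.81, 3.94 and 2.62, and the secreted inhibitor Sfrp1 had 1.61 in replicate 2 alone, against 2.18, 1.97 and 1.31.

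Adipogenic transcription factors had 5 of 12 with a member (41.7%), but 1 of 12 (8.33%) without day 1 replicate 3, and 8 of the 12 had a region kept in all 6 lists. The 5 were Cebpd, Ebf2, Klf4, Klf6 and Nfib. Their log2 differences were all above 0 by fragments per 1000000, and 3 of 5 were below 0 after scaling to kept regions. Genes of adipocyte lipid handling had 4 of 18 (22.2%), namely Plin2, Plin3, Dgat2 and Fabp4, or 2 of 18 (11.1%) without day 1 replicate 3. Plin2 had 1.63 and 2.32 in day 1 replicates 1 and 2, against 1.91, 1.60 and 0.983 at day 0. Dgat2, which makes triglyceride, had 2.03 and 2.86, against 1.63, 2.09 and 1.53. All 4 lipid genes had a log2 difference above 0, and 3 of 4 after scaling, with overlap between days at Plin2 and Dgat2. Of 7 thermogenic genes with a day 0 region, Ckb of the creatine cycle alone had a member, 3 had a kept and 3 a lost region, and none was partly kept without replicate 3.

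Fatty acid oxidation genes had 9 of 23 with a member (39.1%), or 3 of 23 (13.0%) without day 1 replicate 3. They included Cpt1a, the entry step of mitochondrial oxidation, its partner Slc25a20, and Hadh and Hadha of the cycle itself. Over their 9 regions the median log2 difference was -0.11, with 5 below 0, and -0.26 after scaling, again with 5 below 0. Slc25a20, whose difference of 0.39 was above 0, had 4.47 and 3.39 in day 1 replicates 1 and 2, against 3.81, 3.44 and 1.75 at day 0, with overlap. Respiratory complex subunits had 15 of 57 (26.3%), close to the background, as did Zfp genes with 55 of 231 (23.8%) and solute carriers with 35 of 119 (29.4%). Without day 1 replicate 3 they had 4 of 57 (7.02%), 22 of 231 (9.52%) and 11 of 119 (9.24%), below the 12.5% of all genes.

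Kinesin genes, the motors that walk along microtubules, had 12 of 21 with a member (57.1%) and 6 of 21 (28.6%) without day 1 replicate 3. Kif20b, a mitotic kinesin, had 3.75 in day 1 replicate 2 alone, against 2.82, 3.94 and 1.75 at day 0. Kif6 was called in replicate 3 alone, at 0.959, against 3.00, 2.95 and 1.31, a log2 difference of -1.34, or -0.43 after scaling to kept regions. Genes of intraflagellar transport and the Bardet-Biedl complex, which build the primary cilium, had 6 of 15 (40.0%), or 2 of 15 (13.3%) without that library, and 5 of the 6 had a log2 difference below 0 under either scaling. Bbs7 had 1.63 and 2.68 in day 1 replicates 1 and 2, against 5.45, 3.32 and 2.51.

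Chromatin regulators had 11 of 31 (35.5%), or 5 of 31 (16.1%) without day 1 replicate 3, with Kmt2a, Ep300, Chd4, Arid1b, Hdac5, Sirt1 and Tet2 among them. Their 12 regions had a median log2 difference of 0.38, with 4 below 0, and of 0.36 with 1 below 0 after scaling. Sirt1, a deacetylase, had 4.07 and 2.5 in day 1 replicates 1 and 2, against 1.45, 2.58 and 1.64 at day 0, with overlap. Housekeeping genes had 1 of 12 (8.33%) and cholesterol synthesis genes 2 of 23 (8.70%), with 11 and 20 genes that had a kept region. Cytosolic and mitochondrial ribosomal protein genes had 19 of 61 (31.1%) and 17 of 49 (34.7%), and histone genes 13 of 38 (34.2%). Without day 1 replicate 3 these were 12 of 61 (19.7%), 8 of 49 (16.3%) and 5 of 38 (13.2%), while housekeeping and cholesterol synthesis genes both had 1, of 12 and of 23 genes. Ribosomal protein, histone and Zfp genes have near-identical copies, and reads shared between copies could have been placed at any of them, so counts for these families are uncertain.

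**Figure D4:**
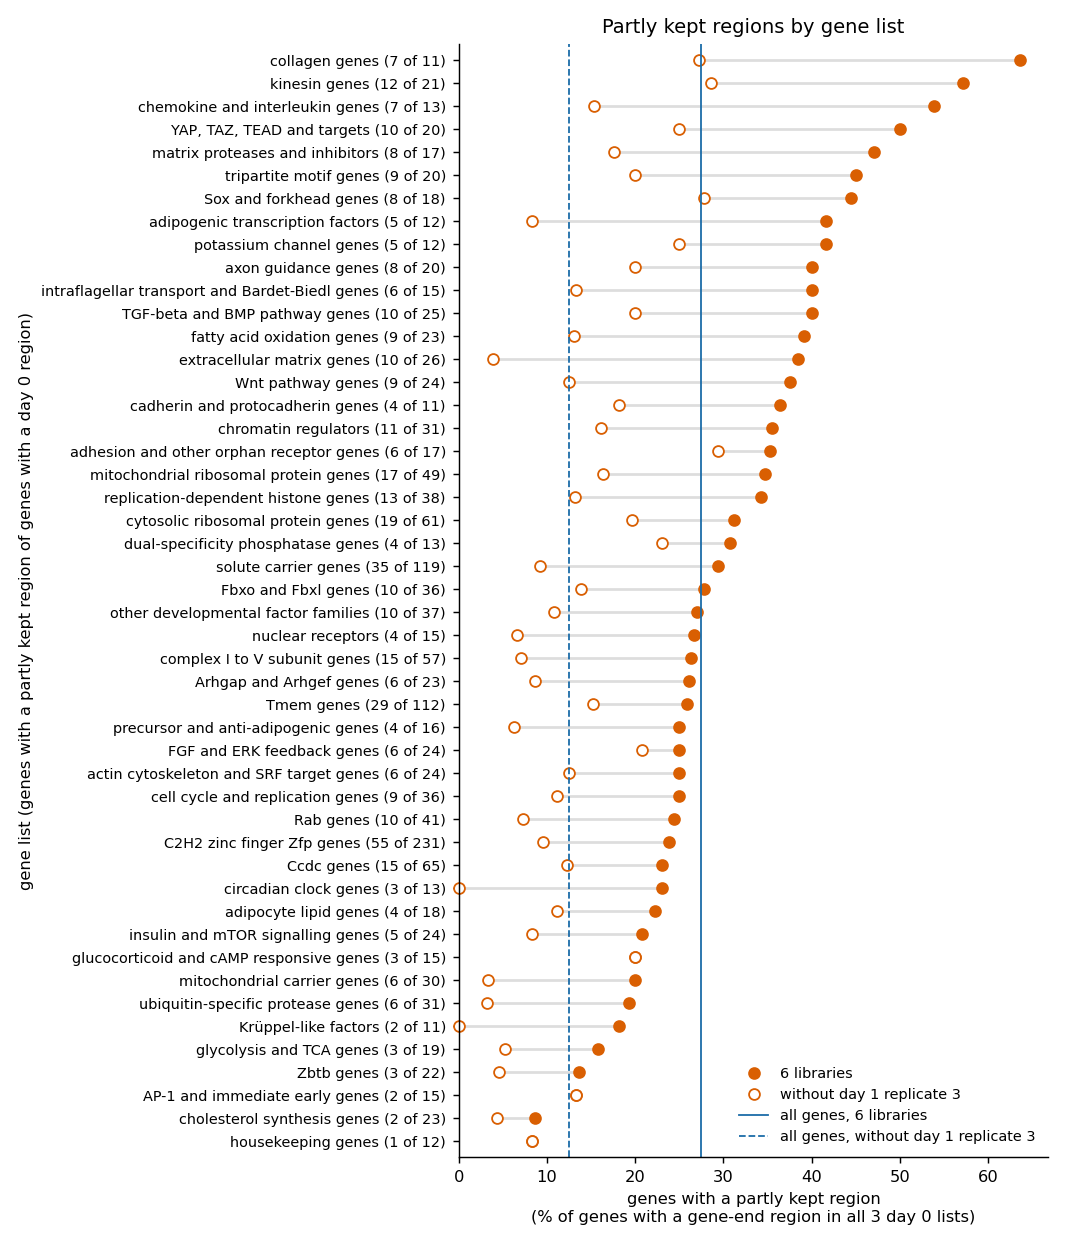
Share of each list's genes that had a partly kept region (horizontal axis, percent of genes with a gene-end region in all 3 day 0 lists) for the lists with 10 or more such genes (vertical axis), with all 6 libraries as filled points and without day 1 replicate 3 as open points. With all 6 libraries collagens are at 63.6%, kinesins at 57.1% and housekeeping genes at 8.33%, and the order differs without day 1 replicate 3, where orphan receptors are at 29.4%, kinesins at 28.6% and collagens at 27.3%. The lines mark the share over all genes, 27.5% and 12.5%.

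Sequence was not used to choose the members. A promoter window of the nearest gene, with its start within 1 kb of the region's midpoint, was in the table for 1617 members (70.3%), 4361 kept and 384 lost regions, and some genes have more than 1 annotated start. The 1755 windows of members had a median GC content of 60.7%, against 62.3% for kept, 59.0% for lost and 56.3% for the 21263 windows of all coding genes. Their CpG ratio had a median of 0.774, against 0.814, 0.651 and 0.567 in the same order. A ratio below 0.4, as in promoters without a CpG island, was found in 11.0% of member windows, against 4.26% of kept, 25.9% of lost and 39.4% of all windows. Members in 1 day 1 library had 14.1% of such windows, and members in 2 had 9.49%. Without day 1 replicate 3 the share was 13.2% in members and 5.11% in kept regions. Members thus fell between kept and lost regions in CpG content, a difference described and not tested.

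Both strands of each window were searched for 12 motifs. The GC box was searched as GGGCGG, the CCAAT box as CCAAT and the ETS motif as CCGGAAG. The CRE was searched as TGACGTCA, the AP-1 motif as TGANTCA, the E-box as CACGTG, the RUNX motif as TGTGGT and the TEAD motif as CATTCC. The C/EBP motif was searched as TTGCNNAA, the TATA motif as TATAAA, the NRF1 motif as GCGCATGC and the EBF motif as CCCNNGGG. None of these contains another, though matches can share letters in a window. The CCAAT box was in 32.9% of member windows, against 45.0% of kept, 35.3% of lost and 38.2% of all windows. Without day 1 replicate 3 the shares were 32.0% in members and 43.2% in kept regions. Members were thus the class with the lowest share, below lost regions, although in CpG content they lay above lost regions.

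ETS letters were in 17.8% of member windows, against 22.9% of kept, 7.71% of lost and 11.6% of all windows. GC boxes were in 67.0%, against 73.4%, 56.3% and 46.2%. Among members in 2 day 1 libraries ETS letters were in 19.2%, and among those in 1 in 15.0%. AP-1 letters, bound by Fos and Jun factors, were in 4.50% of member windows, against 3.68% of kept, 9.58% of lost and 6.99% of all windows. Members and kept regions thus lay below all windows there, and lost regions above. RUNX letters were in 10.7%, against 11.4%, 14.3% and 15.0%, and TEAD letters in 12.8%, against 10.7%, 12.6% and 13.6%. E-boxes were in 12.6% of member windows, against 10.8% of kept, 9.11% of lost and 7.84% of all windows, and CRE letters in 4.90%, against 3.58%, 2.34% and 2.23%. EBF letters were in 19.9%, against 16.6%, 20.8% and 15.6%. TATA letters were in 7.18%, against 5.42%, 10.7% and 12.6%. C/EBP letters were in 8.38%, against 7.41%, 7.48% and 10.2%, and NRF1 letters in 6.10%, against 6.47%, 4.67% and 3.52%.

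**Figure D5:**
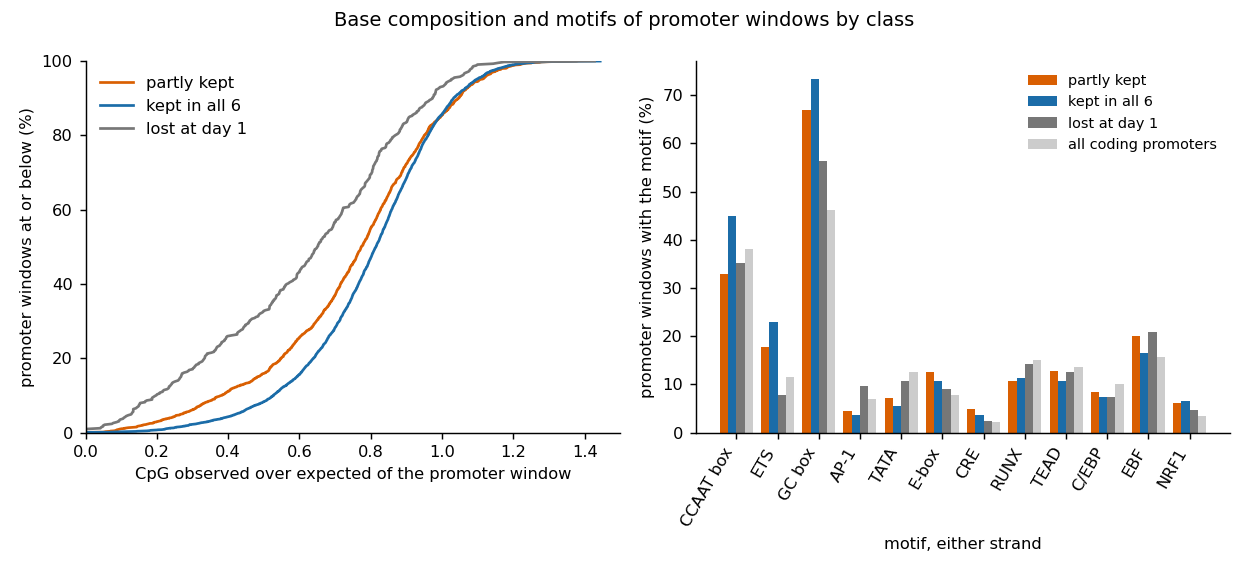
Left, cumulative share of promoter windows (vertical axis, percent) by CpG observed over expected (horizontal axis) for partly kept, kept and lost regions. Right, share of windows with each of 12 motifs (vertical axis, percent), with all coding genes in pale grey. The member curve lies between the kept and lost curves, and CCAAT boxes are in 32.9% of member windows against 45.0% of kept ones.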

How the data were processed

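ATAC-seq peak lists of 6 libraries were used, 3 at day 1 and 3 at day 0. Build mm10 and, with no role for any, the following tools are named in the submitters' processing notes: DiffBind 3.8.4, HOMER 4.11, Bowtie2 2.4.4, Trim Galore 0.6.7, MACS2 2.2.7.1, deepTools 3.5.1 and SAMtools 1.15.1. Peaks were called per library with MACS2 2.2.7.1 on paired-end fragments, at a q of 0.05 without a control, keeping 1 fragment per position and taking local background over 10000 bp, per the file headers. The deposited pileup is a signal in whole fragments, not scaled to depth. The authors' fold enrichment is a ratio to local background and varies with depth, and the deposited −log10 p and −log10 q values are peak scores within a library. Depth was the fragment total in the headers, and intervals are not given because no share of reads was estimated.

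Peaks were merged at 1 bp overlap, assigned to the nearest end of 21887 coding genes (RefSeq, GRCm38.p6) and classed by presence. Strand was taken from the promoter table, which matched 17492 genes, and exon or UTR position is not given. Heights are the highest pileup of a region per 1000000 fragments, and log2 differences use called libraries only. No test was made, since presence at both days chose the members and the rest is a description across regions. The members and the 62 gene lists were chosen with earlier results of these data known. Lists came from pathway or marker membership (29) and otherwise from symbol prefixes. Named genes are the 10 members with the highest day 0 fold, the 6 highest day 1 heights in 2 and in 1 day 1 lists, the 5 highest and 5 lowest log2 differences among members in 2 lists, up to 4 genes per list by day 0 fold, 21 regulators and the regions at the 1 kb limit. Genes named only as members of a list are given without values, and Yap1 and Ccl2 were given values after they were seen. Of the 8 sequences, 4 follow the rule and 4 were chosen for the role of their gene. Alternatives were a −log10 q of at least 5, 50% overlap, gene ends of 500 bp or 2 kb, equal lists of the 12556 strongest peaks, other scalings and leaving out each library. Merging and classing were tested on simulated data. Python 3.11.15, pandas 2.3.3, numpy 2.4.6 and matplotlib 3.10.9 were used.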

Additional observations from a re-analysis of the deposited data

How the results depend on the processing

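The count of partly kept gene-end regions was 1031 to 2669 when a library was left out, and their share of gene-end day 0 regions 12.0% to 28.1%. Both lowest values came without day 1 replicate 3. Over the same fits the members in 2 day 1 lists were 61.7% to 64.3% (leaving out a day 0 library; without a day 1 library this share has no value), genes with a kept region as well 6.08% to 9.93%, list genes with a member 203 to 529, and the median log2 difference -0.022 to 0.19. In equal lists of the 12556 strongest peaks the count fell to 343 and the share to 8.49%, list genes to 84, with 77.6% of members in 2 lists and peaks in replicates 1 to 3 at 67.3%, 75.5% and 34.7%. Of the 342 genes of that setting, 261 were among the 2245. At a −log10 q of at least 5 the share was 31.5%, starts 95.1%, a second kept region 2.96% and peaks in replicates 2 and 3 at 89.0% and 9.45%, and 1448 of its 2400 genes were among the 2245. With gene ends of 2 kb these were 27.8% partly kept, 88.4% at starts, 11.5% with a second kept region and 62.9% in 2 lists. With 500 bp they were 25.4%, 94.8%, 1.37% and 67.9%, with 87.0% in replicate 2. The median log2 difference of members, 0.08 as reported, was below 0 when scaled to kept regions (-0.052), by the authors' fold enrichment (-0.33), with a replicate block (-0.047), without day 0 replicate 3 (-0.022) and without day 1 replicate 2 (-0.012). Height deviations of same-numbered libraries had correlations of -0.04, 0.03 and -0.02 over 5544 kept regions, and those of differently numbered ones ran from -0.033 to 0.055. The heights thus showed no pairing by number, which does not settle whether libraries of 1 number shared a culture. Of the summary values under these alternatives, 67 stayed within their bounds and 29 did not. Base composition and the median log2 differences, those below 0 included, were among the 67. The bound was 1.5 times for a count and a binomial interval over regions or genes for a share. For log2 differences it was the standard deviation over day 1 libraries, whose member medians were 0.07, 0.15 and -0.73 in replicates 1 to 3. That bound is wide beside a median of 0.08, so a change of sign stayed within it. For base composition it was the standard deviation over single promoters, which is wide for a median. Among single lists, motif shares and peak widths 172 values moved and 590 did not. Equal lists lowered 58 of the 62 list counts, each past the bound of 1.5 times. The cause of the changes was not tested. A day 1 summit of about 10 fragments limits what a missing peak can mean. The counts of single lists without day 1 replicate 3, the scaled list medians and the promoter shares without it were chosen after seeing the data.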
